A study of Mus musculus with 4 samples.

Results

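The 9 genes described here mark T cells and the lymphocytes that live within the intestinal epithelium. They are Cd3d, Cd3e and Cd3g, which encode chains of the CD3 complex, the coreceptors Cd8a and Cd4, the granzymes Gzma and Gzmb, the integrin chain Itgae, and Il2rb, a receptor chain for interleukins. They were chosen by symbol in the mm9 assembly, with earlier results of these data known, and they are 9 of 20749 genes that could be counted. Shares of members set beside shares of all genes are therefore a description. Reads on their exons were compared between small intestine and colon of the mouse by RNA-Seq on the SOLiD platform. The SOLiD instrument reads pairs of adjacent bases as colors, and 35 colors of each read were matched.

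All tissue came from C57BL/6 mice aged 9 to 10 weeks (the unit is given by the methods of the study and is missing from the labels), was taken as total tissue (jejunum and distal colon by the methods of the study) and was frozen in liquid nitrogen. One pair of libraries, small intestine and colon, was made from polyadenylated RNA by SMART cDNA synthesis, and the cDNA was fragmented, so that strand was lost. The other pair was made by fragmentation of RNA with a whole transcriptome kit that keeps strand, and the labels give ribosomal RNA depletion for it, whereas the methods of the study describe polyadenylated RNA for their RNA fragmented protocol. The total reads of this pair in the deposited reports, 36419942 and 37466674, also differ from those the study lists for its RNA fragmented libraries, so these may be other libraries than the ones it describes. There was 1 library per tissue and protocol, so neither protocol has replicate error, and whether a library came from a single mouse or from a pool is not given in the sources used here. The study describes both tissues as taken from the same individuals, without saying which mouse gave which library. By cDNA fragmentation 22484041 reads of small intestine and 24798934 of colon had a unique placement, and by RNA fragmentation 2035386 and 3478387. All of these reads lay on RefSeq exons or exon-exon junctions, and whether they are also unique in the whole genome was not tested. The level of a gene is given as RPKM, its reads divided by exon length in kilobases and by the uniquely placed reads of the library in units of 1000000. Intervals in brackets are at the 95% level, from the exact Poisson distribution for levels and from the exact binomial distribution for ratios, and they hold counting error alone, because copies of a molecule made by amplification are counted as separate reads. Total tissue cannot tell fewer lymphocytes from less RNA per lymphocyte.

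A T cell recognizes its target through the T cell receptor, which signals through the CD3 chains, while CD8 or CD4 binds the presenting molecule as coreceptor. In the small intestine, many T cells sit between epithelial cells, carry CD8α, often without CD8β, hold on to E-cadherin through the αE integrin encoded by Itgae, and store granzymes, the proteases that killer cells deliver into their targets. Interleukin 15 from the epithelium sustains these cells through a receptor that contains the chain encoded by Il2rb.

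Every member had reads in both tissues in the cDNA fragmented libraries, and all 9 were higher in small intestine there, with an interval of the ratio above 1 for 9 of 9. In the RNA fragmented libraries 8 of 9 were higher in small intestine, with an interval above 1 for 7 and an interval that spans 1 for the remaining 2, Cd3e and Cd4. Among the 7, Cd3g and Cd3d had few reads, and some of their small intestine reads began at the same position. The member that was not higher there was Cd4, whose direction was not settled at this depth and turned under some alternatives of processing. By value, 5823 of all 20749 genes were higher in small intestine by cDNA fragmentation and 5842 by RNA fragmentation. The share of all genes with an interval above 1 was not computed. The members drew 11805 reads in small intestine against 759 in colon by cDNA fragmentation, and 322 against 140 by RNA fragmentation. The median ratio of small intestine to colon was 8.87 by cDNA fragmentation and 3.12 by RNA fragmentation. The study's rule for a difference asks for RPKM in one tissue of at least 3 times the sum of 1, a penalty, and RPKM in the other. The study applied it to FPKM of RefSeq transcripts from Cufflinks, and here it was applied to the RPKM of whole genes. By cDNA fragmentation 6 of 9 members passed it for small intestine, where 2.16% of all genes did. By RNA fragmentation 2 of 9 passed, against 2.79% of all genes, and the same 2, Gzma and Gzmb, passed in both protocols, against 1.47% of all genes. No member passed it for colon, which 2.53% of all genes did by cDNA fragmentation, 4.81% by RNA fragmentation and 1.61% in both.

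**Figure D1:**
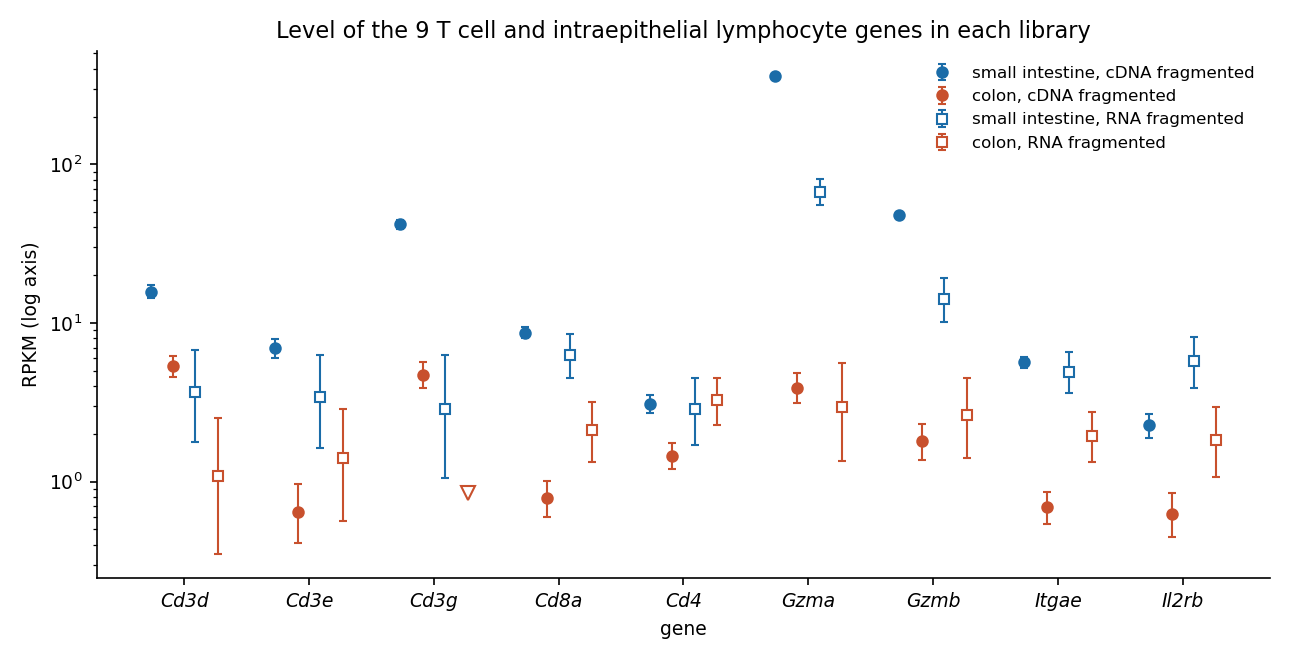
RPKM (log axis) of each of the 9 genes (x axis) in each of the 4 libraries. Blue is small intestine and orange is colon, filled circles are cDNA fragmented and open squares RNA fragmented, bars are exact Poisson intervals at the 95% level, and the open triangle is the level of 3 reads for Cd3g, which had 0 reads. Gzma in small intestine stands above all other values, and Cd4 is the gene for which both tissues lie closest by RNA fragmentation.

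A tissue effect across both protocols was fitted by limma on the counts of all 13813 genes with at least 10 reads in at least 2 libraries, with protocol as a block, and p-values were adjusted by the Benjamini-Hochberg method. All 9 members passed this filter, each already through the cDNA fragmented libraries of both tissues. Higher in small intestine were 8 of 9 members, against 7.2% of all genes tested, and none was called for colon, where 7.35% of all genes were. Cd4 was the member that did not pass. The fit keeps 1 residual degree of freedom per gene and borrows the spread from other genes, with a prior weight of 37.2 degrees of freedom. Its p-values thus set a gene's difference mainly against the spread between the pairs of libraries in other genes. A small p-value does not show that a gene's own ratio was alike in both pairs. The deeper cDNA fragmented pair carries more weight in the fit. Without the protocol block limma called 0 members and 0 genes in either direction, while 5 members and 740 of the 13813 genes had an unadjusted p under 0.05. With at least 10 reads asked for in all 4 libraries, 5 members could be tested and 4 were called, beside 634 of 10007 genes called for small intestine. The median log2 difference of all genes tested was -0.10. The scaling of libraries in this fit moved log2 differences toward small intestine, by 0.22 in the cDNA and 0.35 in the RNA fragmented pair. The RPKM ratios hold no such shift, so a limma difference can lie above the log2 of both ratios of a gene.

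The CD3 chains transmit the signal of the T cell receptor, and their genes lie side by side on chromosome 9, Cd3g at chr9:44777655-44788514 on the minus strand, Cd3d at chr9:44789869-44795135 on the plus strand and Cd3e at chr9:44806826-44817673 on the minus strand (mm9). By cDNA fragmentation Cd3g had 965 reads in small intestine, a level of 42.0 RPKM (39.3 to 44.7), and 120 reads in colon, 4.73 RPKM (3.92 to 5.66). By RNA fragmentation Cd3g had 6 reads in small intestine, 2.88 RPKM (1.06 to 6.27), and 0 reads in colon, which allows up to 0.843 RPKM (3 reads). Cd3g was thus higher in small intestine by a ratio of 8.87 (7.33 to 10.8) by cDNA fragmentation. By RNA fragmentation its ratio was 3.42 with colon set at the floor of 3 reads, and the exact lower limit of the ratio, which holds the counting error of the 6 reads as well, was 2.01. The 6 reads began at 3 distinct positions, with 4 of them at a single position, which this limit does not take into account. A count of 3 against 0 in these libraries has a lower limit of 0.706. The limma log2 difference of Cd3g was 3.58 ± 0.57 (SE), with a limma adjusted p of 6.91e-06.

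Cd3e showed the same order by cDNA fragmentation, with 224 reads or 6.94 RPKM (6.06 to 7.91) in small intestine and 23 reads or 0.646 RPKM (0.409 to 0.969) in colon, a ratio of 10.7 (6.98 to 17.3). In the RNA fragmented pair, 10 and 7 reads gave levels of 3.42 and 1.40 RPKM, and the ratio of 2.44 (0.839 to 7.56) could not be told from 1 at this depth. The limma log2 difference of Cd3e was 3.04 ± 0.66 (SE; limma adjusted p = 0.000688). Cd3d was the CD3 chain with the smallest ratio by cDNA fragmentation. It had 471 reads or 15.8 RPKM (14.4 to 17.2) in small intestine and 176 reads or 5.34 RPKM (4.58 to 6.19) in colon, a ratio of 2.95 (2.48 to 3.53). By RNA fragmentation 10 and 5 reads of Cd3d gave 3.69 and 1.08 RPKM and a ratio of 3.42 (1.06 to 12.7). Those reads began at 6 and 5 distinct positions. The limma log2 difference of Cd3d was 1.83 ± 0.53 (SE; limma adjusted p = 0.0130).

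Counted by reads, the exons of Cd3d did not share one ratio. Over its last exon block, 780 bases at chr9:44794356-44795135 that make up 58.6% of the counted length, the ratio of small intestine to colon by cDNA fragmentation was 1.60 (1.21 to 2.13), from 128 and 88 reads. Over its other 4 blocks, 343 and 88 reads gave a ratio of 4.30 (3.39 to 5.50). The last block held 27.2% of the reads of Cd3d in small intestine and 50.0% in colon, and up to 15 reads of Cd3d began at a single position in colon, where no position of the small intestine library held more than 4. Cd3d was the only one of the 9 members for which the intervals of the last block and of the other blocks did not overlap in the cDNA fragmented libraries. By distinct start points the last block had 102 in small intestine and 45 in colon. Blocks 1 to 4 had 37 and 3, 120 and 32, 74 and 33, and 14 and 7. No interval was computed from start points, by which blocks 3 and 4 lay near the last block. The cause was not tested.

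CD8α and CD4 are the coreceptors that divide T cells into classes that read different presenting molecules. Cd8a (chr6:71323421-71329165, plus strand) had 612 reads or 8.70 RPKM (8.02 to 9.41) in small intestine and 61 reads or 0.786 RPKM (0.601 to 1.01) in colon by cDNA fragmentation. By RNA fragmentation it had 40 reads or 6.28 RPKM (4.49 to 8.55) and 23 reads or 2.11 RPKM (1.34 to 3.17). Both small intestine libraries lay above both colon libraries, with ratios of 11.1 (8.50 to 14.6) and 2.97 (1.74 to 5.20) and a limma log2 difference of 3.09 ± 0.53 (SE; limma adjusted p = 2.92e-05).

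Cd4 (chr6:124814711-124838227, minus strand) behaved differently from Cd8a. Its levels were 3.09 RPKM (2.69 to 3.53, 215 reads) in small intestine and 1.46 RPKM (1.20 to 1.76, 112 reads) in colon by cDNA fragmentation. By RNA fragmentation they were 2.86 RPKM (1.69 to 4.52, 18 reads) and 3.25 RPKM (2.26 to 4.52, 35 reads). The ratio was 2.12 (1.68 to 2.68) in the first pair and 0.879 (0.469 to 1.59) in the second, so the tissues overlapped by RNA fragmentation. The log2 ratio of Cd4 by RNA fragmentation (0.1 RPKM added) was -0.18, and its sign was not settled at this depth. It was 0.04 with distinct start points in place of reads and 0.10 with at most 1 mismatch. It was 0.15 with median-of-ratios scaling, which moves the ratios of all genes alike, and 0.08 with the deeper library thinned in a single random draw. It stayed negative with sense reads only (-0.39), with junction reads added (-0.18) and with a pseudocount of 1 RPKM (-0.14). Across both protocols the limma log2 difference of Cd4 was 0.94 ± 0.53 (SE), which did not pass (limma adjusted p = 0.264).

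Within each library, the ratio of Cd8a to Cd4 per length put the tissues on opposite sides of 1. In small intestine Cd8a was above Cd4, with a ratio of 2.81 (2.41 to 3.30) by cDNA and 2.20 (1.23 to 4.07) by RNA fragmentation. In colon the ratio was 0.539 (0.388 to 0.742) by cDNA fragmentation and 0.650 (0.367 to 1.13) by RNA fragmentation, the latter with an interval that includes 1. The tissue ratio of Cd8a was 5.22 times that of Cd4 (3.64 to 7.53) by cDNA fragmentation and 3.34 times (1.47 to 7.82) by RNA fragmentation. These values compare genes within a library, so the depth of the library cancels. Cd8b1, which encodes CD8β and was added because it pairs with CD8α, had 86 and 8 reads by cDNA fragmentation, and Cd8a stood above it per length by 3.22 (2.57 to 4.08) in small intestine and by 3.45 (1.64 to 8.35) in colon. By RNA fragmentation Cd8b1 had 1 and 0 reads, too few for a comparison.

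**Figure D2:**
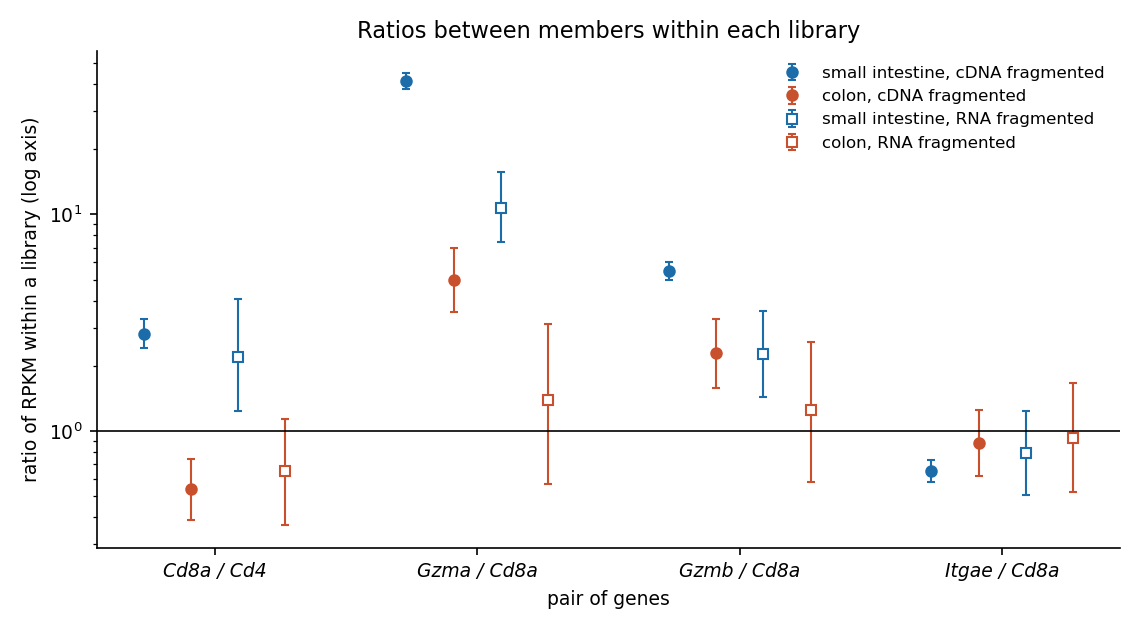
Ratio of RPKM of one member to another within each library (log axis) for 4 pairs of genes (x axis), with exact intervals at the 95% level. Blue is small intestine and orange is colon, filled circles are cDNA fragmented and open squares RNA fragmented, and the line marks 1. Cd8a lies above Cd4 in both small intestine libraries and below it in both colon libraries, Gzma over Cd8a is higher in small intestine in both protocols, and Itgae over Cd8a lies between 0.651 and 0.923 in all 4.

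Granzymes A and B are the proteases of cytotoxic granules, and their genes showed the largest ratios among the members that had reads in both tissues. Gzma (chr13:113884035-113891189, minus strand) had 7079 reads or 359 RPKM (350.3 to 367) in small intestine by cDNA fragmentation, above 98.6% of all genes, and 85 reads or 3.90 RPKM (3.12 to 4.83) in colon, above 63.0%. In the RNA fragmented pair it had 120 reads or 67.1 RPKM (55.7 to 80.3) in small intestine and 9 reads or 2.95 RPKM (1.35 to 5.59) in colon. The ratios were 91.9 (74.2 to 115) and 22.8 (11.6 to 51.0), and the limma log2 difference was 6.23 ± 0.52 (SE; limma adjusted p = 4.05e-12). Counted by distinct start points instead of reads, Gzma had 1276 in small intestine and 76 in colon by cDNA fragmentation and 55 and 8 by RNA fragmentation. Its log2 ratio (0.1 RPKM added) then fell from 6.49 to 4.12 and from 4.46 to 3.54, and its limma log2 difference was 4.21. Gzma has 878 counted bases and so can hold only a limited number of start points. Start points may therefore understate its ratio. They also merge copies made by amplification, which reads count separately, so reads may overstate it. In small intestine up to 21 Gzma reads by cDNA and 16 by RNA fragmentation began at a single position. The part of each was not tested, which limits comparisons of Gzma with other genes by either count.

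Gzmb (chr14:56877695-56881097, minus strand) followed with 1522 reads or 47.8 RPKM (45.4 to 50.3) in small intestine and 63 reads or 1.79 RPKM (1.38 to 2.30) in colon by cDNA fragmentation. By RNA fragmentation it had 41 reads or 14.2 RPKM (10.2 to 19.3) and 13 reads or 2.64 RPKM (1.41 to 4.51). Its ratios were 26.6 (20.7 to 34.9) and 5.39 (2.83 to 11.0), with a limma log2 difference of 4.33 ± 0.54 (SE; limma adjusted p = 6.58e-08). With start points the log2 ratio of Gzmb was 4.13 by cDNA fragmentation, close to that of Gzma, and 2.58 by RNA fragmentation. In small intestine both granzymes stood above every other member per length in both protocols, and in neither colon library did Gzma exceed all other members.

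Reads across exon-exon junctions, which were counted apart from those on exons, gave a further view of the granzymes. Gzma had 84 junction reads in small intestine and 2 in colon by cDNA fragmentation, and Gzmb had 8 and 0. None was found for either gene by RNA fragmentation. Over all genes, 46 of 184868 junction reads in small intestine and 42 of 202208 in colon had 0 mismatches by cDNA fragmentation. Nearly all junction matches thus carried a mismatch, and the cause was not tested. The junction with most reads of each gene is shown as the join to which these reads were matched. The end of the upstream exon is in lower case and the start of the downstream exon in capitals, 5′ to 3′ on the strand of the gene.
Gzma: tgcccactgtaacgtGGGAAAGAGATCTAA
Gzmb: cgtgcttcctttcggGGGGATTCTGGAGGC
The Gzma junction joins exon blocks 2 and 3 (chr13:113888449-113888463 to chr13:113886535-113886549, mm9, minus strand) and was crossed by 26 small intestine reads and 0 colon reads. The Gzmb junction joins blocks 4 and 5 (chr14:56879019-56879033 to chr14:56878385-56878399, mm9, minus strand), with 6 reads and 0. Both lie in coding exons, and a count of 0 allows up to 3 reads per library.

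Gzma differed between the tissues by more than Cd8a did. The level of Gzma over Cd8a was 41.2 (38.0 to 44.9) in small intestine and 4.97 (3.53 to 7.02) in colon by cDNA fragmentation, and 10.7 (7.42 to 15.7) and 1.39 (0.568 to 3.13) by RNA fragmentation. The tissue ratio of Gzma was 8.30 times that of Cd8a (5.81 to 11.8) by cDNA and 7.57 times (3.07 to 20.2) by RNA fragmentation. With start points the gap was narrower, with log2 ratios of 4.12 for Gzma and 3.28 for Cd8a by cDNA fragmentation and of 3.54 and 1.47 by RNA fragmentation. For Gzmb the same comparison, in reads, gave 2.41 (1.64 to 3.52) by cDNA fragmentation and 1.80 (0.755 to 4.45) by RNA fragmentation, where the interval includes 1. Gzma was also above Gzmb per length in small intestine, by 7.50 (7.10 to 7.93) and 4.72 (3.29 to 6.90), and by 2.18 (1.55 to 3.06) and 1.12 (0.421 to 2.82) in colon, in the order cDNA and RNA fragmentation.

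Itgae encodes the αE chain (CD103), which pairs with the β7 chain and binds E-cadherin on epithelial cells. The gene (chr11:72904097-72960951, plus strand) had 582 reads or 5.66 RPKM (5.21 to 6.14) in small intestine and 78 reads or 0.688 RPKM (0.544 to 0.859) in colon by cDNA fragmentation. In the RNA fragmented pair it had 46 reads or 4.94 RPKM (3.62 to 6.59) and 31 reads or 1.95 RPKM (1.32 to 2.77). Small intestine was above colon in both pairs, by 8.23 (6.49 to 10.6) and 2.54 (1.57 to 4.14), with a limma log2 difference of 2.71 ± 0.51 (SE; limma adjusted p = 0.000124). Itgae stayed close to Cd8a in each library, at 0.651 to 0.923 times its level per length. Reads across exon-exon junctions are not in these levels, and Itgae has 31 exon blocks against 5 of Cd8a. The tissue ratio of Itgae was 0.744 times that of Cd8a (0.513 to 1.07) by cDNA fragmentation. By RNA fragmentation it was 0.854 times (0.405 to 1.79), and both intervals included 1. Its partner Itgb7, the β7 chain, had ratios of 2.65 (1.97 to 3.61) and 2.28 (0.881 to 6.12) and did not pass the test (limma adjusted p = 0.0636).

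Il2rb encodes the β chain that the receptors for interleukins 2 and 15 share. This gene (chr15:78310979-78325452, minus strand) was the lowest member in small intestine by cDNA fragmentation, with 135 reads or 2.26 RPKM (1.90 to 2.68), against 41 reads or 0.623 RPKM (0.447 to 0.846) in colon. By RNA fragmentation it had 31 reads or 5.74 RPKM (3.90 to 8.15) and 17 reads or 1.84 RPKM (1.07 to 2.95). The ratios of 3.63 (2.54 to 5.29) and 3.12 (1.67 to 6.00) lay close together, and Il2rb rose by a limma log2 difference of 2.03 ± 0.58 (SE; limma adjusted p = 0.0126). In each protocol the small intestine value lay above the colon value with no overlap of the intervals.

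**Figure D3:**
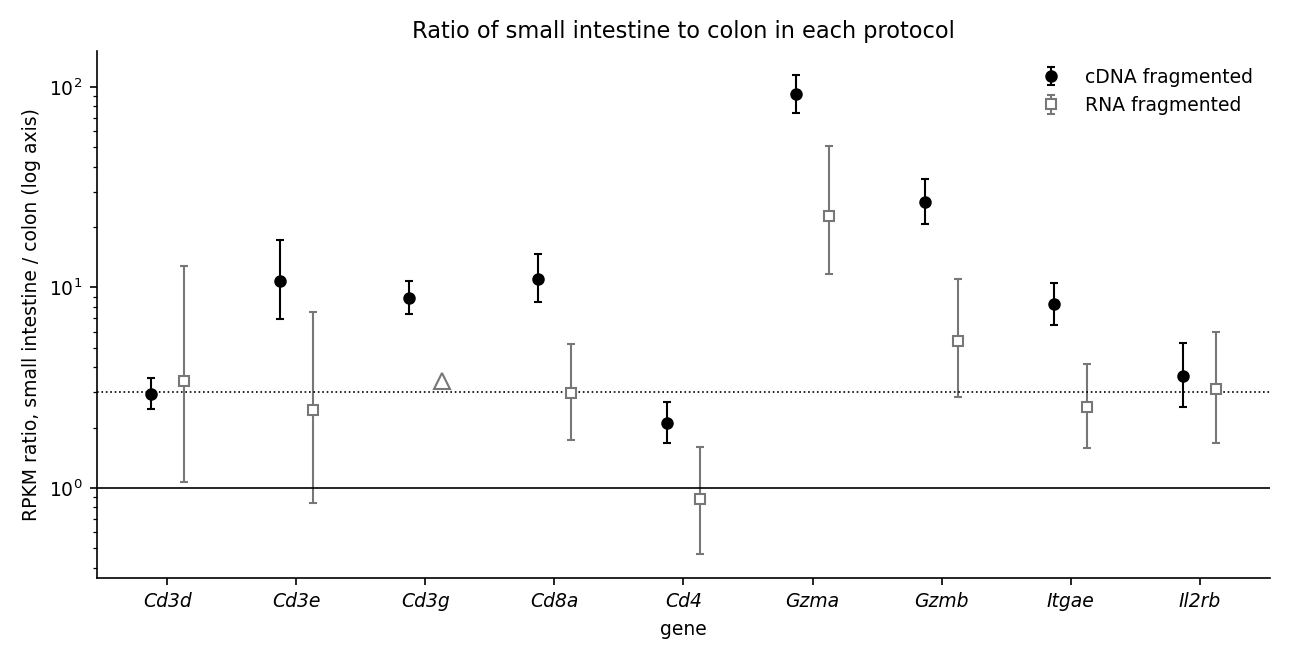
Ratio of RPKM in small intestine to RPKM in colon (log axis) for each of the 9 genes (x axis). Black circles are cDNA fragmented and grey squares RNA fragmented libraries, bars are exact intervals at the 95% level, the grey triangle is the ratio of Cd3g with colon set at 3 reads (exact lower limit 2.01, not drawn), the full line marks 1 and the dotted line 3. All black circles lie above 1, from 2.12 for Cd4 to 91.9 for Gzma, and the grey square of Cd4 alone lies below 1.

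The tissue ratio itself depended on the protocol for several members. The ratio by cDNA fragmentation was 4.93 times that by RNA fragmentation for Gzmb (2.30 to 9.97), 4.34 times for Cd3e (1.28 to 14.1), 4.03 times for Gzma (1.74 to 8.27), 3.71 times for Cd8a (1.98 to 6.84), 3.23 times for Itgae (1.87 to 5.57) and 2.40 times for Cd4 (1.26 to 4.72). For these 6 the interval lay above 1, and for Cd3d, Cd3g and Il2rb it included 1. The same comparison was not made over all genes. Other lists also had lower median log2 ratios by RNA than by cDNA fragmentation. The medians were -0.06 against 1.17 for leukocyte genes, -0.44 against 0.98 for B and plasma cells, and -0.86 against 0.63 for macrophages and dendritic cells. That of the epithelial genes (0.14 against -0.19) was not lower. For all genes the medians were 0 against -0.12, but they include genes with no reads in either tissue, which sit at 0. By RNA fragmentation 6044 of 20749 genes had no reads in small intestine and 5135 had none in colon. The all-gene medians therefore cannot show whether genes with reads were lower as well. Each protocol has a single pair of libraries, so protocol and library cannot be told apart. The order of the members per length was clearer in small intestine than in colon. In small intestine, Gzma was first and Gzmb second in both protocols without overlap of neighbouring intervals. By cDNA fragmentation the intervals of Cd3e and Itgae were the only neighbouring ones to overlap there. In colon the first places by cDNA fragmentation went to Cd3d and Cd3g, whose intervals overlapped, and by RNA fragmentation all neighbouring members overlapped.

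Strand could be read in the RNA fragmented libraries. There 97.5% (Wilson interval, 95.2 to 98.7) of the members' reads in small intestine and 95.7% (91.0 to 98.0) in colon lay on the strand of the gene, against 98.5% of the reads of all genes in each library. All 120 Gzma reads in small intestine and all 9 in colon were in sense. The largest share on the other strand among members with at least 20 reads was that of Cd8a in colon, where 4 of 23 reads were antisense. In the cDNA fragmented libraries the members' sense share was 47.3% and 43.2%, and strand carries no information there.

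Other genes of the T cell receptor complex and its signalling followed the members in part. Of 25 such genes, 3 passed the study's rule for small intestine by cDNA fragmentation and 0 for colon, and by RNA fragmentation 0 passed for small intestine and 2 for colon. By limma 10 of 19 tested were called for small intestine and 0 for colon. The median log2 ratio of the 25 genes was 1.82 by cDNA and 0.96 by RNA fragmentation (0.1 RPKM added). The medians were 3.12 and 1.59 for the 9 members and -0.12 and 0 for all genes. Those of all genes include genes with no reads in either tissue, which sit at 0. With no pseudocount, over genes with more than 3 reads in at least 1 tissue and with a count of 0 set at 3 reads, the medians were 1.95 (25 genes) and 1.19 (19 genes) for this list and 3.15 and 1.64 for the 9 members. Cd7, a surface protein of T and natural killer cells, had 67.8 and 7.59 RPKM by cDNA fragmentation and 18.1 and 6.17 by RNA fragmentation, with ratios of 8.94 and 2.93. Lck, the kinase bound to both coreceptors, had ratios of 2.16 and 2.02 and did not pass the test (limma adjusted p = 0.0551). Thy1, a surface protein of T cells that neurons and fibroblasts also carry, had the opposite order, with 2.61 against 3.39 RPKM by cDNA fragmentation and 3.96 against 15.9 RPKM by RNA fragmentation, and Thy1 and Cd2, an adhesion protein of T cells, were the genes that passed the rule for colon by RNA fragmentation.

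Of 22 further cytotoxic genes, 4 passed the rule for small intestine by cDNA fragmentation and 1 by RNA fragmentation, with none for colon, and 6 of 13 tested were higher in small intestine by limma. Their median log2 ratio was 1.70 by cDNA and 0.72 by RNA fragmentation, or 2.19 (20 genes) and 1.26 (9 genes) with no pseudocount and the floor of 3 reads. Ccl5, a chemokine of cytotoxic lymphocytes, was the one that passed in both protocols. It had 604 and 28.1 RPKM by cDNA fragmentation, a ratio of 21.5 (19.4 to 23.9), and 55.5 and 4.33 RPKM by RNA fragmentation, a ratio of 12.8 (6.10 to 31.0). Nkg7, a granule protein, had ratios of 8.84 and 3.42, the latter from 4 and 2 reads. Ctsw, a cathepsin of cytotoxic cells, had ratios of 2.25 and 1.52 and did not pass the test (limma adjusted p = 0.111). Several genes of this list had few reads, and by RNA fragmentation 7 of the 22 had none in small intestine and 8 none in colon.

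Transcription factors and helper genes had smaller medians by value. Of 14 transcription factors of T cells and innate lymphocytes, with median log2 ratios of 0.81 and 0.60, none passed the rule in either direction, and 5 of 11 tested were higher in small intestine by limma. Id2, which innate lymphocytes and epithelium both use, had ratios of 2.58 and 1.54 and was among them (limma adjusted p = 0.0166), while Zbtb7b, the factor of the CD4 lineage, with ratios of 0.514 and 0.935, did not pass. Zbtb7b had 1.23 and 2.39 RPKM by cDNA fragmentation, where Cd4 had 3.09 and 1.46 RPKM. By RNA fragmentation Zbtb7b had 69.5 and 74.3 RPKM, where Cd4 had 2.86 and 3.25 RPKM. Which cells carried Zbtb7b was not tested, so its ratios are not read here as those of the CD4 lineage. Of 16 genes of helper, naive and regulatory T cells, 1 passed the rule by cDNA fragmentation and 1 of 11 tested by limma, in each case Cxcr6, a chemokine receptor of tissue-resident T cells, with ratios of 5.04 and 2.10. The median log2 ratio of these 16 was 0.75 by cDNA fragmentation and -0.19 by RNA fragmentation, or 1.16 (14 genes) and -0.45 (9 genes) with no pseudocount and that floor. Tnfrsf18, a receptor of regulatory T cells, had ratios of 0.677 and 0.732, and S1pr1, the receptor for exit from tissue, had 1.48 and 0.238.

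Genes through which epithelium and vessels recruit or hold intraepithelial lymphocytes, with their receptors, made up a list of 22, of which 7 passed the rule for small intestine in each protocol, 5 of them in both, and 1 passed for colon by cDNA fragmentation and 0 by RNA fragmentation. Their median log2 ratio was 1.16 by cDNA and 0.39 by RNA fragmentation. By limma 11 were called for small intestine and 1 for colon. Ccl25, the chemokine that small intestinal epithelium makes for cells with the receptor CCR9, had 2081 and 18.1 RPKM by cDNA fragmentation and 256 and 4.18 RPKM by RNA fragmentation, with ratios of 115 (105 to 126) and 61.2 (36.8 to 110.1). Its receptor gene Ccr9, named for this pairing, had ratios of 12.1 and 9.68 (limma adjusted p = 2.71e-06). The butyrophilin-like genes Btnl3 (now named Btnl1), Btnl2 and Btnl6, of the family through which epithelium sustains γδ T cells, passed in both protocols, Btnl3 with ratios of 3.96 and 6.57, Btnl2 with 4.33 and 16.4, and Btnl6 with 3.84 and 7.76. Amica1, a junctional adhesion protein of leukocytes, had 7.0 and 6.27. Cdh1, which encodes the E-cadherin that Itgae binds, had ratios of 0.877 and 1.40 and did not pass the test (limma adjusted p = 0.515). Il15, which encodes interleukin 15, had ratios of 0.683 (0.614 to 0.760) and 1.23 (0.874 to 1.73) and did not pass either (limma adjusted p = 0.995), nor did Il7, a cytokine of lymphocyte survival, with 0.479 and 0.701, and Madcam1, the vessel ligand of the integrin with the β7 chain, with 0.681 and 0.342. The single gene of the list called for colon, by limma and by the rule, was Aim2, a DNA sensor, with ratios of 0.0941 and 0.325.

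**Figure D4:**
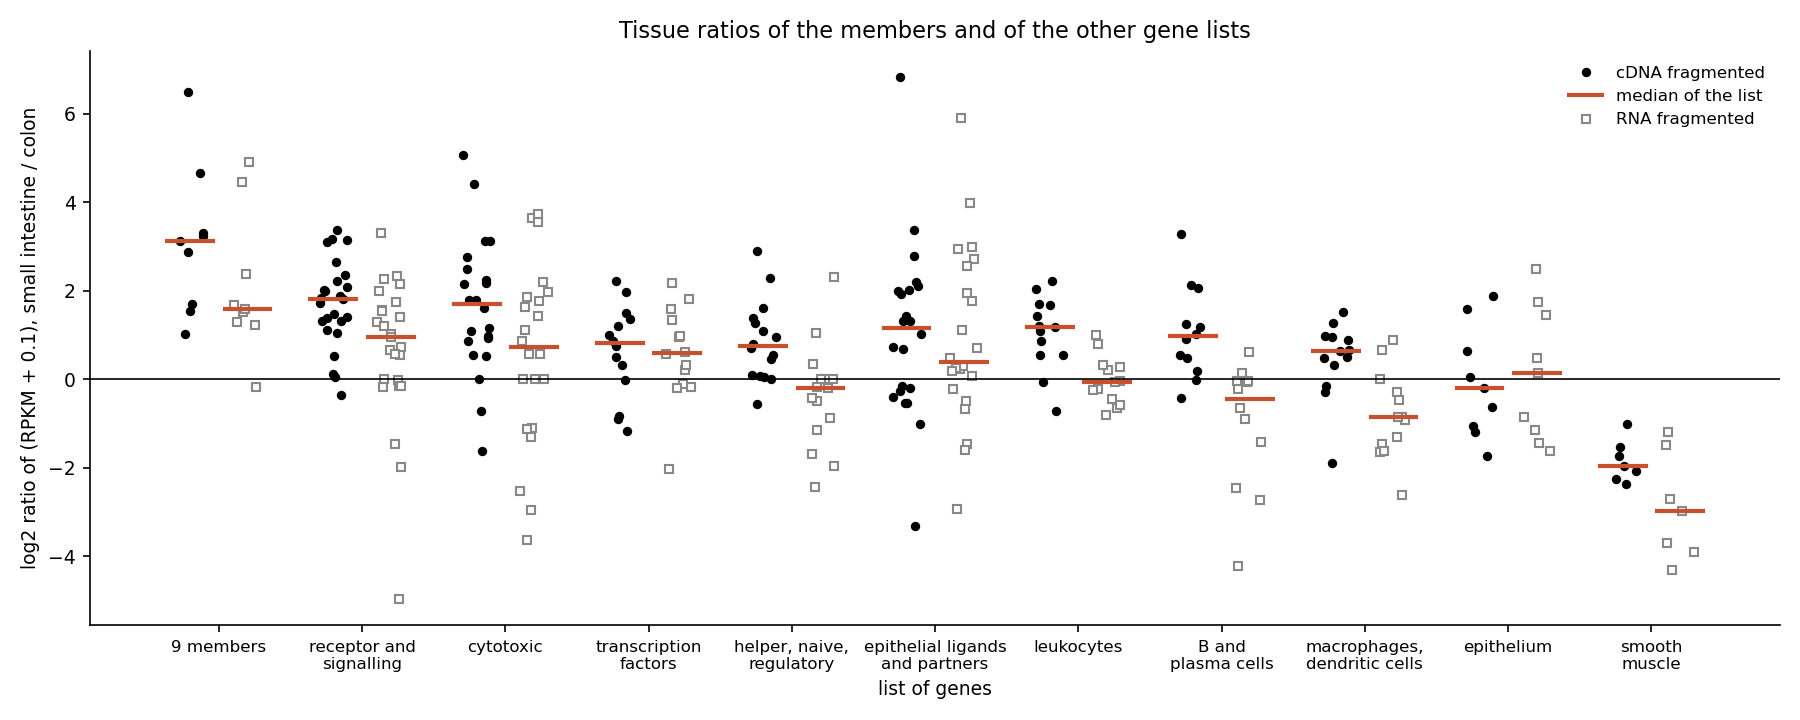
Log2 ratio of small intestine to colon (y axis, 0.1 RPKM added to each level) for each gene of the 9 members and of 10 other lists (x axis), with black circles for the cDNA fragmented and grey squares for the RNA fragmented libraries and an orange bar at each median. The medians of the members are 3.12 and 1.59, that of the smooth muscle genes lies below 0 in both protocols, and genes with no reads in both tissues sit at 0.

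Markers of other cells were counted in the same libraries. The 13 genes of leukocytes of any kind summed to 335 RPKM in small intestine and 163 RPKM in colon by cDNA fragmentation and to 102 and 111 RPKM by RNA fragmentation, and 3 of 13 were higher in small intestine by limma. Their most abundant genes, Cd52 and Arhgdib, had ratios of 1.47 and 2.31 by cDNA and 0.977 and 0.635 by RNA fragmentation. Relative to the median ratio of these 13 genes, with 0.1 RPKM added, the ratio of Gzma was 39.8 times as large by cDNA and 23.0 times by RNA fragmentation, that of Gzmb 11.2 and 5.45, Cd8a 4.41 and 3.0, Cd3e 4.19 and 2.44, Itgae 3.25 and 2.56, Il2rb 1.45 and 3.13, Cd3d 1.29 and 3.35, and Cd4 0.908 and 0.919. For Cd3g it was 3.86 by cDNA fragmentation, and no value is given by RNA fragmentation, where colon had 0 reads. By cDNA fragmentation Cd3d, Il2rb and Cd4 thus lay nearest the leukocyte genes, and by RNA fragmentation Cd4 did. Of 12 genes of B cells and plasma cells, 2 were higher in small intestine by limma, namely Igj, the joining chain of IgA and IgM, with ratios of 9.75 and 0.966, and 2010001M09Rik (now named Mzb1), a protein of antibody-secreting cells, with 4.41 and 0.131, the latter from 1 and 13 reads. By value 10 of these 12 were higher in small intestine by cDNA fragmentation (median log2 ratio 0.98) and 2 by RNA fragmentation (median -0.44), and 3 passed the rule for small intestine by cDNA and 1 for colon by RNA fragmentation. The 13 genes of macrophages and dendritic cells summed to 237 and 252 RPKM by cDNA fragmentation and to 85.0 and 172 RPKM by RNA fragmentation, and by limma 1 of 13 was called for small intestine and 1 for colon. By value 10 of the 13 were higher in small intestine by cDNA fragmentation (median log2 ratio 0.63) and 2 by RNA fragmentation (median -0.86). The most abundant of them, Lyz2 and Cd14, had ratios of 0.821 and 0.267 by cDNA fragmentation.

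The 7 smooth muscle genes were all lower in small intestine by value in both protocols, and 6 of 7 were higher in colon by limma. They summed to 307 against 1274 RPKM by cDNA fragmentation and to 241 against 2421 RPKM by RNA fragmentation, so colon had 4.16 and 10.0 times as much, with Tagln and Actg2 at 5.18 and 4.24 times by cDNA fragmentation. The 9 epithelial genes summed to 10063 and 5561 RPKM by cDNA fragmentation and to 4705 and 6455 RPKM by RNA fragmentation, and by limma 2 were called for small intestine and 1 for colon. The median log2 ratio of the 9 was -0.19 by cDNA and 0.14 by RNA fragmentation, with 4 and 5 of them higher in small intestine by value. Krt20 made up most of the cDNA fragmented sum in small intestine, at 7525 RPKM against 2503 in colon, and had ratios of 3.01 and 5.61, while Krt8 had 0.647 and 0.454. None of the defining epithelial or muscle genes was at 0 in any library. The part of the make-up of the tissue in the ratios of the members was not tested.

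The 5 genes whose levels over the 4 libraries lay closest to the mean profile of the members, among 8218 genes with at least 20 reads in every library, were 2010002M12Rik, H2-Aa, Pls1, Far2 and Slc7a7. Likeness was the Euclidean distance between centred log2 levels, from 0.0996 for 2010002M12Rik to 0.337 for Slc7a7. H2-Aa, a class II presenting chain, had 1334 and 156 RPKM by cDNA fragmentation and 665 and 145 RPKM by RNA fragmentation. Pls1, an actin bundling protein of the brush border, had 817 and 97.1 RPKM by cDNA fragmentation and 441 and 80.6 RPKM by RNA fragmentation. With 4 libraries many genes can share such a profile, and the list is a description.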

How the data were processed

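Total tissue of small intestine and colon was compared by RNA-Seq with 1 library per tissue in each of 2 protocols. The authors deposited matched reads, their color sequences, positions of RefSeq exon blocks and junctions of mm9, and reports of matching. The authors had matched 35 colors per read with up to 3 mismatches, and had kept uniquely placed reads, all of which lay on the exon blocks or junctions. The methods of the study name BioScope with seeds that were extended, and longer reads for some libraries, whereas the deposited reports describe matches of all 35 colors, and the software version behind them is not given in the sources used here. The deposited files hold no normalized values.

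Reads were counted here on exon blocks, which were named by exon overlap with GENCODE M1 (NCBIM37, the same assembly), and the read counts per library equal those in the authors' reports in all 4. Blocks under 35 bases cannot hold a read. Levels per length were not corrected for reads lost at the ends of blocks, which limits comparisons of genes with each other. Reads in blocks that could not be named (0.182 to 0.541% of exon reads) and junction reads were left out of RPKM. Depth was 2035386 to 24798934 uniquely placed reads, and 3 reads served as the floor for a count of 0. The members and lists were chosen with earlier results of these data known. Of the companion and marker lists, Zfp683 alone was not matched, and 3 genes were matched by an older symbol. Named were all members, the 3 most abundant genes of each companion list and those past the 3-fold rule in both protocols, the 2 most abundant of each marker list and the 5 genes of most similar profile, except 1 gene that is not reported here. Cd8b1, Itgb7, Ccr9, Cd2, Aim2, Il15, Il7, Madcam1, Cma1 and Tpsb2 were named after their values had been seen.

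A quasi-likelihood count test had been planned. It was kept for tables deposited as counts and was not run, and limma 3.58.1 with voom weights was fitted to the counts made here in R 4.3.3, with trimmed mean of M-values factors, protocol as a block and Benjamini-Hochberg adjustment at 0.05. Which mouse gave which library is not stated, so its p-values may measure technical spread only. The procedure was tested on simulated data: of 100 genes changed 8-fold 100 were recovered, of 100 changed 2-fold 6 were recovered, and 8 of 13613 unchanged genes were called. The simulation used a single dispersion for all genes and the same fold in both protocols. In the real data the tissue ratio of 6 members differed between the protocols. The simulated shares are therefore not error rates for these libraries. Other steps used Python 3.11.15 with scipy 1.17.1. Alternatives were other scaling, filters, penalties and pseudocounts, start points, at most 1 mismatch, sense reads, junction reads added, thinning, no block and limma-trend.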

Additional observations from a re-analysis of the deposited data

Results flagged for a closer look

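Cd4 had opposite signs in the protocols, with a log2 ratio of 1.03 by cDNA fragmentation and of -0.18 by RNA fragmentation (0.1 RPKM added), and the interval of the RNA fragmented ratio included 1. The RNA fragmented sign was positive under 4 alternatives (0.04 to 0.15). It was negative with sense reads only (-0.39), with junction reads added (-0.18) and with a pseudocount of 1 RPKM (-0.14). From 18 and 35 reads the sign cannot be settled. The difference between tissue ratios of the protocols could be examined by counting error only, with a single pair of libraries each. The ratio by cDNA fragmentation divided by that by RNA fragmentation was 2.40 for Cd4, 3.23 for Itgae, 3.71 for Cd8a, 4.03 for Gzma, 4.34 for Cd3e and 4.93 for Gzmb, with exact intervals above 1. The share of all genes with such an interval was not computed.

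Reads across exon-exon junctions, which were not counted in the RPKM values, exceeded 3 reads in the cDNA fragmented small intestine library for 5 members. They numbered 84 for Gzma, 26 for Cd3g, 11 for Itgae, 10 for Cd3d and 8 for Gzmb. The colon library of the same protocol had 2, 6, 3, 1 and 0 in the same order. Over all 9 members they were 145 in small intestine and 12 in colon by cDNA fragmentation, and 6 and 1 by RNA fragmentation. Over all genes, 46 of 184868 junction reads in small intestine and 42 of 202208 in colon had 0 mismatches by cDNA fragmentation.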

How the results depend on the processing

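The number of members past the 3-fold rule by cDNA fragmentation was 6 or 7 under all alternatives run. By RNA fragmentation it was 2 or 3, except with a penalty of 0.1 RPKM, where it was 4. The share of all genes past the rule was not computed under these alternatives, and a lower penalty lets more genes of any kind pass. The median log2 ratio of the members by cDNA fragmentation fell from 3.12 to 2.27 with a pseudocount of 1 RPKM. By limma 8 members were called under median-of-ratios factors, total reads only, at least 1 read in any library, start points and limma-trend, the last chosen after seeing the data, beside 1137, 719, 709, 1037 and 830 genes called for small intestine of 13813, 13813, 17387, 13637 and 13813 tested. With at least 10 reads in all 4 libraries 5 members could be tested and 4 were called. Of the 10007 genes tested there, 634 were called for small intestine and 574 for colon, against 995 and 1015 of 13813. With at least 1 read in any library 635 genes were called for colon. Without the protocol block 0 members, 0 genes for small intestine and 0 for colon were called by limma, while 5 members and 740 genes had an unadjusted p under 0.05. With total reads only the calls split into 719 and 1448, and the median log2 difference of all genes moved from -0.10 to -0.37. The limma log2 difference of Gzma was 4.21 with start points and 6.23 with reads. Start points are limited in number in a short gene and also merge copies made by amplification, and the part of each was not tested. Among the settings that kept the protocol block, Cd3d and Il2rb were the called members nearest the threshold, with limma adjusted p up to 0.0493 and 0.0488. Without 1 library the other protocol's pair alone gives the value, with no test, and the median log2 ratio of the members was 1.59 without either cDNA fragmented library and 3.12 without either RNA fragmented one, against 2.23 for the mean of both. The protocol block pairs the tissues within each protocol, and no other pairing was fitted because the labels give no replicate numbers. The planned DESeq2 fit was not run, since count models of that kind were kept for tables deposited as counts. Depth limits the RNA fragmented values: 4 members had fewer than 20 reads in small intestine there and 6 in colon.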

Other observations

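Markers of lymphoid follicles and of mast cells and granulocytes were counted in the same libraries. Of 9 follicle genes, 0 were called by limma in either direction among 7 tested, and 1 gene passed the 3-fold rule for each tissue by RNA fragmentation. Cxcl13, the chemokine that draws B cells into follicles, had 29.6 and 28.9 RPKM in small intestine and colon by cDNA fragmentation and 0.846 and 9.65 RPKM by RNA fragmentation. Gp2, a surface protein of M cells and of pancreatic acinar cells, had 2.47 and 8.20 RPKM by cDNA fragmentation and 20.9 and 1.16 RPKM by RNA fragmentation, so its order turned between the pairs of libraries. Of 12 genes of mast cells and granulocytes 3 could be tested, and 1 was higher in small intestine by limma, namely Prg2, a granule protein of eosinophils, with 9.39 and 2.31 RPKM by cDNA fragmentation and 3 and 0 reads by RNA fragmentation. Mcpt1, a mast cell protease, had 40 and 21 reads by cDNA fragmentation and 2 and 0 by RNA fragmentation. By value 8 of the 12 were higher in small intestine by cDNA fragmentation (median log2 ratio 0.42) and 3 by RNA fragmentation, where 9 had no reads in each tissue. The mast cell proteases Cma1 and Tpsb2 went the other way by cDNA fragmentation, with log2 ratios of -2.83 and -1.13 (0.1 RPKM added). Tpsb2 had -3.84 by RNA fragmentation.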
